A study of Mus musculus with 8 samples.

Results

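Ionotropic GABA-A receptors are built from subunits of several classes, and the 7 subunit genes described here are the 4 alpha genes *Gabra2*, *Gabra3*, *Gabra4* and *Gabra5*, the 2 beta genes *Gabrb1* and *Gabrb2*, and the delta gene *Gabrd*. They were chosen by gene name from the 23335 gene names of a table of single-cell counts, in which each of the 7 has exactly 1 row. The counts come from single neurons of mouse frontal cortex, namely chandelier cells (ChC), whose terminals sit on the axon initial segments of pyramidal cells, and Pv cells, the parvalbumin-expressing fast-spiking basket cells that innervate cell bodies. ChC were labeled in *Nkx2.1*-CreER; Ai14 mice, given tamoxifen at E17.5 before birth, with animal 1 at postnatal day 31 (library batches 1 and 2) and animal 2 at postnatal day 32 (batches 3 and 4). Pv cells came from *Pv*-ires-Cre; Ai14 mice, with animal 3 at postnatal day 29 (batches 5 and 6) and animal 4 at postnatal day 35 (batches 7 and 8). All 4 mice carried the Ai14 red fluorescent reporter and are labeled as female and, in the sample titles, as WT, and the label on treatment repeats the tamoxifen induction for the Pv mice, whose genotype holds no CreER. In all groups the slices were bathed in blockers of glutamate receptors and sodium channels and treated with protease, and fluorescent cells were picked by hand. The *Pv*-ires-Cre allele drives Cre from the parvalbumin gene, and ChC and Pv libraries ran on separate flow cells, so that the effects of cell type, mouse line and flow cell cannot be told apart.

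A GABA-A receptor is a pentameric chloride channel, usually of alpha and beta subunits joined by a gamma or a delta subunit. GABA binds between alpha and beta subunits, and the alpha subunit together with gamma sets the response to benzodiazepines. Receptors with gamma subunits gather at synapses, while receptors with delta lie mainly outside them, carry tonic inhibition and respond to neurosteroids. In the forebrain delta is known to pair with the alpha4 subunit in principal cells, and alpha5 receptors are known for tonic inhibition in the hippocampus.

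Each count is a varietal tag (UMI), which marks an mRNA molecule captured by its poly(A) tail, and 63 cells of each type had counts, with 2 of the 128 picked cells at 0. The ChC batches held between 448121 and 2460679 UMI and the Pv batches between 316540 and 797177 UMI, and the median cell had a total of 33244 UMI for ChC and of 23248 UMI for Pv. *Slc32a1*, the vesicular GABA transporter, had a UMI in 63 of 63 ChC and 63 of 63 Pv cells. *Pvalb*, which encodes parvalbumin, was between 85.4 and 200.5 CPM (counts per 1000000 counts of the batch, with TMM scaling) in the ChC batches and between 573 and 1757 CPM in the Pv batches. The other Pv markers looked at overlapped between the cell types. *Kcnc1* had means of 580.4 CPM in ChC and 469.7 CPM in Pv batches, and *Syt2* of 7.77 and 37.25 CPM. *Xist*, the RNA that coats the silenced X chromosome in females, had no UMI in the 15 cells of Pv batch 6, whereas batch 5, labeled as the same animal, had a *Xist* UMI in 16 of 16 cells. The label gives batch 6 as a batch of a female mouse and of the same animal as batch 5. Of genes with at least 100 UMI over batches 5 and 6, 4.04% were at 0 in 1 of them, as *Xist* was. Whether the label of batch 6 is wrong was not tested. The fold change of each member is also given without batch 6, as are most of the balance values and shares of cells. Of 23 markers of other cell types, 7 were at 0 (*Neurod6*, *Tbr1*, *Gfap*, *Cspg4*, *C1qa*, *Cldn5* and *Vip*), and their summed level lay between 130.4 and 2115 CPM in the ChC batches and between 424.9 and 1459 CPM in the Pv batches. The part of these markers in the values below was not tested.

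The members lie at 5 places of the mm9 genome. *Gabra2* (chr5:71352296-71487088, minus strand), *Gabra4* (chr5:71960973-72049547, minus strand) and *Gabrb1* (chr5:72091255-72528483, plus strand) share a cluster on chromosome 5, in which *Gabra4* and *Gabrb1* point away from each other with their starts 41.7 kb apart. *Gabrb2* (chr11:42233259-42446093, plus strand) lies beside *Gabra6* on chromosome 11. *Gabra5* (chr7:64663039-64765379, minus strand) lies 20.8 kb from *Gabrg3*, and its span overlaps *Gm9962* on the opposite strand, so that reads of this pair could not be separated if strand was not used in counting. *Gabra3* (chrX:69678015-69901585, minus strand) spans the microRNA genes *Mir105* and *Mir767*. *Gabrd* (chr4:154759088-154772178, minus strand) stands alone and has the shortest span of the 7, at 13.1 kb against 437.2 kb for *Gabrb1*.

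The 250 bases before the annotated start are shown for *Gabrb1* and *Gabrb2*, the beta members, whose balance differs between batches below. Sequences are 5′ to 3′ on the strand of the gene, read from the mm9 genome at chr5:72091005-72091254 and chr11:42233009-42233258. GGGCGG, the core of a GC box, was searched on both strands with overlaps allowed and would be in capitals.
Gabrb1: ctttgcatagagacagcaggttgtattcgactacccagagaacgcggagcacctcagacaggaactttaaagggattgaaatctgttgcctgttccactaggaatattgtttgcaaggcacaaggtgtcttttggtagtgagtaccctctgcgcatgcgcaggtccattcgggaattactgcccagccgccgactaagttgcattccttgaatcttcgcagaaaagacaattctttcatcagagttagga
Gabrb2: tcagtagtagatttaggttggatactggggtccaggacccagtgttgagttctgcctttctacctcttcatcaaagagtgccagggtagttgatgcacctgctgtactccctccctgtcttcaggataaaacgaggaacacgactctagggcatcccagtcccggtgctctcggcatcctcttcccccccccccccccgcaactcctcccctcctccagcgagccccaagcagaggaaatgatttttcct

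The *Gabrb2* window was 55.6% GC with 6 CG dinucleotides and the *Gabrb1* window 47.2% GC with 9 CG, and neither held GGGCGG. Among the alpha members, *Gabra2* had 1 and *Gabra4* had 2 copies of GGGCGG, and *Gabra3* and *Gabra5* had none. Over 26320 windows of the same length, 41.3% held GGGCGG, the median GC content was 55.2% and the median number of CG dinucleotides was 9. TATAAA and CACGTG, found in 12.0% and 6.48% of the windows on either strand, were in none of these 6 windows.

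ChC and Pv cells were compared to ask whether their subunit mRNAs differ. The beta and delta mRNAs were the abundant members in both cell types, and the 4 alpha members had lower means and were uneven between batches. *Gabrb2* had the difference with the smallest p, with a mean of 195.5 CPM in ChC and 488 CPM in Pv batches, but no member passed the test. With UMI summed per animal, 2 ChC against 2 Pv animals, edgeR's quasi-likelihood test called 0 of 7 members, where it called 0.0% of 9681 genes in either direction. At an unadjusted p under 0.05 there was 1 member, *Gabrb2*, where 6.4% of all genes were in either direction and 2.64% with the higher value in Pv. DESeq2 called 0 of 7 members and 1.77% of 8930 genes, and edgeR with the batches as samples called 0 of the 6 members it tested and 0.0955% of 6283 genes. In no member were all batches of a cell type above all batches of the other (0 of 7), where this held for 4.74% of the 6283 genes tested over batches. The median log2 fold change (ChC over Pv) was -0.41 over the 7 members, 5 of which were negative, and 0.06 over all genes tested. The batches of an animal hold different cells of that animal, so the test over animals rests on 2 a group.

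The beta subunits form the GABA site with alpha and are needed to bring receptors to the membrane. *Gabrb2* was measured at 120.1, 200.5, 85.3 and 376 CPM in ChC batches 1 to 4 and at 648, 759, 113 and 431 CPM in Pv batches 5 to 8. Of the Pv batches 3 lay above all ChC batches, and batch 7 lay below 3 of the 4 ChC batches. The means were 195.5 ± 130 CPM (SD, n = 4 batches) in ChC and 488 ± 285 CPM (SD, n = 4 batches) in Pv, with overlapping ranges. Over animals the log2 fold change (ChC over Pv) was -1.57 (SE 0.65, unadjusted p = 0.0398, adjusted p = 0.742 in edgeR's quasi-likelihood test). It was -1.60 (SE 0.75, adjusted p = 0.888 from the same test) without batch 6, -0.88 without batch 3 and -0.96 without animal 3. Both ChC animals lay below both Pv animals, at 155 and 182 against 647 and 374 CPM without scaling, where the 647 CPM of animal 3 includes batch 6. The same held for *Gabra4*, at 1.99 and 35.7 against 75.3 and 65.5 CPM. The share of all genes that separate the animals in this way is not given here, so no weight is put on this order.

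*Gabrb1* was the more even of the beta members between cell types. It was at 212, 132, 303 and 154 CPM in ChC batches 1 to 4 and at 49.03, 249.7, 127 and 267 CPM in Pv batches 5 to 8. The ranges overlapped, with batch 5 lowest of the 8 and batch 3 highest. The means were 200.4 ± 76.2 CPM (SD, n = 4 batches) in ChC and 173 ± 104 CPM (SD, n = 4 batches) in Pv, and the log2 fold change over animals was 0.20 (SE 0.74, adjusted p = 0.999 from edgeR's test). Its sign turned when animal 2 or 3 or batch 3 or 5 was left out, with values between -0.21 and -0.06, and it was 0.59 without batch 6.

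The delta subunit takes the place of gamma in extrasynaptic receptors. *Gabrd* was at 184, 71.7, 211 and 174 CPM in ChC batches 1 to 4 and at 308, 211, 99.9 and 213 CPM in Pv batches 5 to 8. Apart from batches 2 and 7, which were low, and batch 5, which was high, the batches of both cell types lay between 174 and 213 CPM. The means were 160.3 ± 61.01 CPM (SD, n = 4 batches) in ChC and 208 ± 84.99 CPM (SD, n = 4 batches) in Pv. The log2 fold change over animals was -0.41 (SE 0.76, adjusted p = 0.989 from edgeR's test) and -0.66 without batch 6.

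The alpha subunits set where a receptor sits and which drugs it answers, and alpha2 is known from the axon initial segment of pyramidal neurons, the site that ChC contact. Within the ChC themselves *Gabra2* was at 5.11, 92.0, 3.77 and 41.4 CPM in batches 1 to 4. In Pv batches 5 to 8 it was at 0, 38.6, 2.70 and 1.15 CPM, where the 0 of batch 5 allows up to 7.64 CPM of the batch total. Each ChC animal had a high and a low batch, and the Pv batches had a high value only in batch 6. The means were 35.6 ± 41.4 CPM (SD, n = 4 batches) in ChC and 10.6 ± 18.7 CPM (SD, n = 4 batches) in Pv. The log2 fold change over animals was 1.77 (SE 1.64, adjusted p = 0.973 from edgeR's test), and it was 4.90 (SE 1.96, adjusted p = 0.839) without batch 6. It was 0.09 without ChC batch 2, 0.82 without Pv batch 5, 0.59 without animal 1, 4.39 without animal 3 and 0.80 without animal 4.

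*Gabra3*, an X-linked subunit of synaptic receptors, varied least of the alpha members. It was at 33.2, 64.4, 28.3 and 13.2 CPM in ChC batches 1 to 4 and at 49.03, 30.9, 67.5 and 27.6 CPM in Pv batches 5 to 8. The ranges overlapped nearly whole, and the log2 fold change over animals was -0.06 (SE 1.26, adjusted p = 0.999 from edgeR's test). Its sign turned when animal 2 or batch 1, 4, 5 or 7 was left out, with values up to 0.36, and it was -0.31 without batch 6.

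*Gabra4*, a partner of delta in principal cells, was at 0, 3.68, 42.3 and 14.1 CPM in ChC batches 1 to 4, where the 0 of batch 1 allows up to 6.69 CPM of the batch total. In Pv batches 5 to 8 it was at 40.9, 121, 8.10 and 80.5 CPM. The batches of ChC animal 1 were the lowest of the 8 and Pv batch 6 was the highest. The means were 15.01 ± 19.1 CPM (SD, n = 4 batches) in ChC and 62.6 ± 48.9 CPM (SD, n = 4 batches) in Pv, and the log2 fold change over animals was -1.88 (SE 1.49, adjusted p = 0.952 from edgeR's test). Without animal 2 it was -4.98, without animal 1 it was -0.98, and without batch 6 it was -1.47.

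*Gabra5*, the alpha member of extrasynaptic receptors without delta, was the least even gene of the 7. It was at 5.11, 5.52, 41.1 and 89.8 CPM in ChC batches 1 to 4 and at 417, 0, 2.70 and 25.3 CPM in Pv batches 5 to 8. The highest value was that of batch 5, with 153 UMI, and the lowest that of batch 6, with none, which allows up to 6.96 CPM of the batch total. The means were 35.4 ± 40.02 CPM (SD, n = 4 batches) in ChC and 111 ± 204 CPM (SD, n = 4 batches) in Pv. The log2 fold change over animals was -1.76 (SE 1.52, adjusted p = 0.972 from edgeR's test), was -2.87 without batch 6, and turned to 1.69 without batch 5 and to 0.78 without animal 3.

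**Figure D1:**
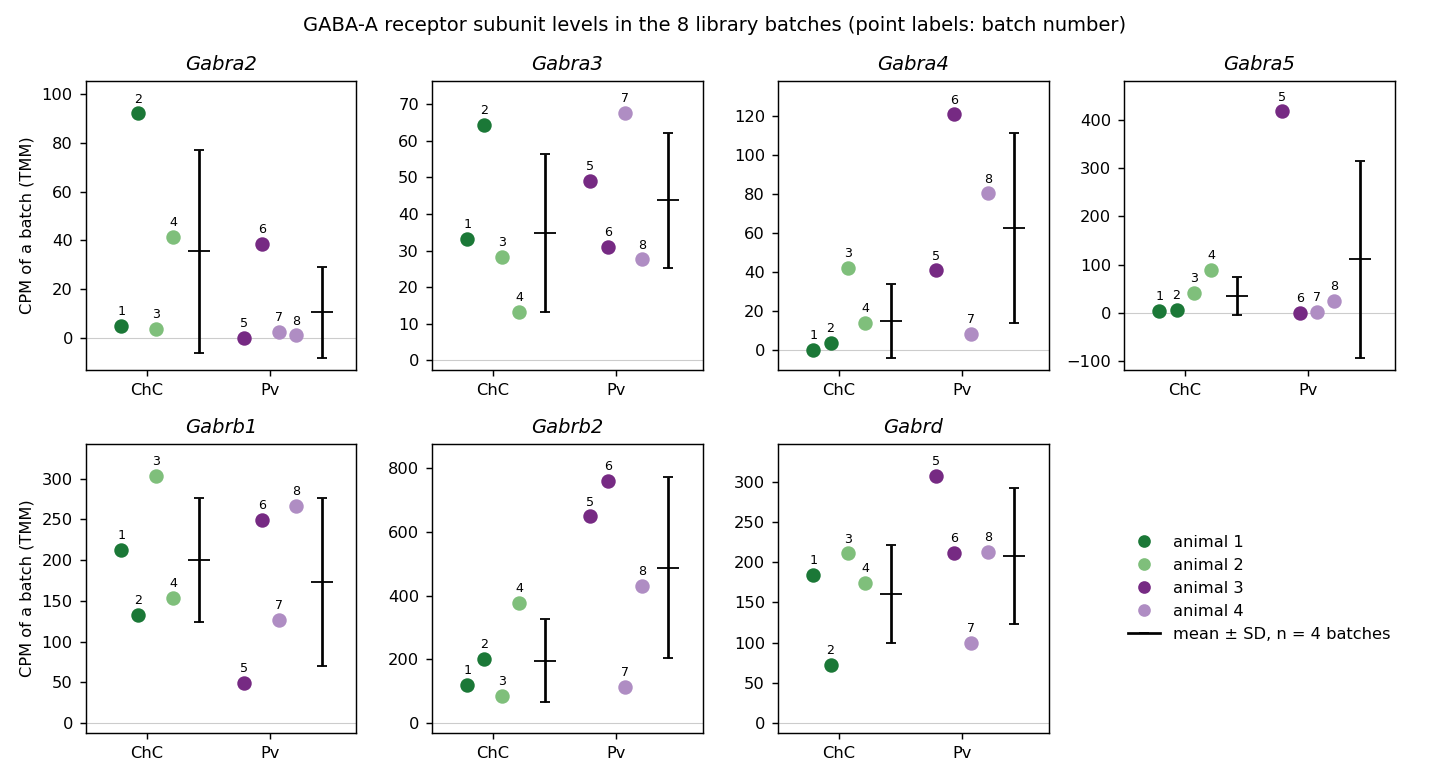
Level of each subunit (vertical axis, CPM of a library batch with TMM scaling) in ChC and Pv batches, colored by labeled animal and numbered by batch, with mean ± SD over 4 batches a cell type. *Gabrb2* is above 400 CPM in Pv batches 5, 6 and 8, *Gabra5* is at 417 CPM in batch 5 and 0 in batch 6, and the cell types overlap in every panel.

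**Figure D2:**
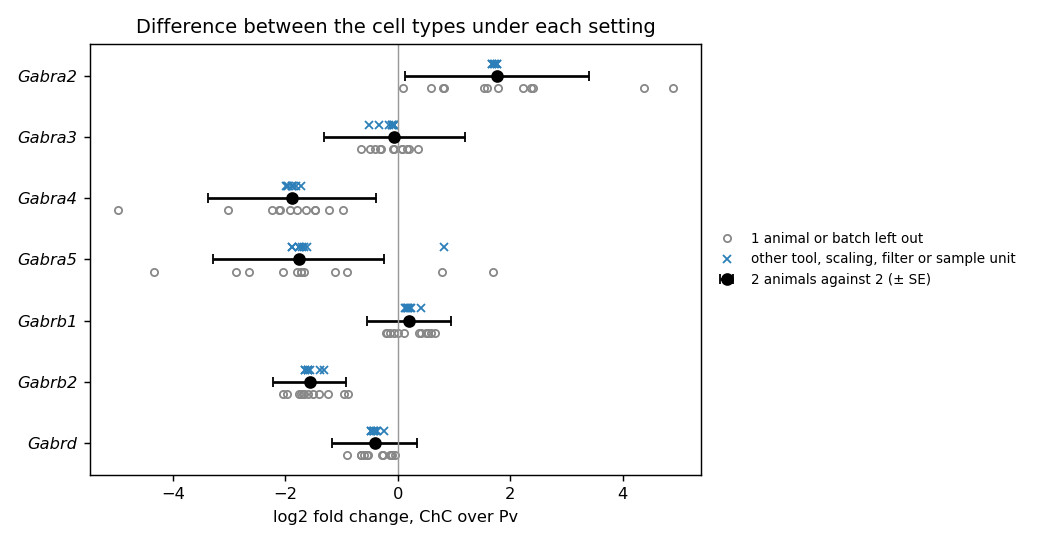
Log2 fold change, ChC over Pv (horizontal axis), for each subunit, with the fit on 2 against 2 animals (black, ± SE), fits with 1 animal or batch left out (open circles) and fits with another tool, scaling, filter or sample unit (crosses). *Gabrb2* stays between -2.04 and -0.88, while *Gabra3*, *Gabra5* and *Gabrb1* take both signs.

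In both cell types the mean levels of the beta and delta members were above those of all 4 alpha members. In ChC the order from high to low CPM was *Gabrb1*, *Gabrb2*, *Gabrd*, *Gabra2*, *Gabra5*, *Gabra3* and *Gabra4*, and in Pv cells it was *Gabrb2*, *Gabrd*, *Gabrb1*, *Gabra5*, *Gabra4*, *Gabra3* and *Gabra2*. Levels were compared between genes as CPM without division by transcript length, since a UMI counts a molecule and not its length, and the capture of each mRNA was not corrected for. Every member overlapped its neighbor in the order over the batches. *Gabrb2* exceeded *Gabrd* in CPM in 4 of 4 Pv batches and in 2 of 4 ChC batches, and *Gabrd* exceeded *Gabra2* in 3 of 4 ChC batches. Other steps of the order held in only 1 of 4 batches, namely *Gabrd* over *Gabrb1* and *Gabra5* over *Gabra4* in Pv and *Gabra2* over *Gabra5* in ChC, so that single batches set those ranks.

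The balance of the classes was described by the share of each in the summed UMI of the 7 members, which gave 156 to 909 UMI in the Pv batches and 219 to 1894 UMI in the ChC batches. The beta members made up 58.4 ± 2.98% (SD, n = 4 batches) of these UMI in ChC and 60.4 ± 11.2% (SD, n = 4 batches) in Pv. The alpha members made up 17.8 ± 8.75% (SD, n = 4 batches) in ChC and 19.8 ± 9.59% (SD, n = 4 batches) in Pv, and *Gabrd* made up 23.8 ± 9.20% (SD, n = 4 batches) and 19.8 ± 3.62% (SD, n = 4 batches). The ranges overlapped for all 3 classes, and the differences between the cell types, of 3.95 percentage points or less in size, were below the larger of the 2 SDs. Single batches differed by more than counting error, as the alpha share was 33.5% (exact 95% binomial interval 29.6 to 37.6%) in Pv batch 5 and 13.5% (10.8 to 16.6%) in Pv batch 6. Intervals of this kind cover counting error only.

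Within the classes the shares of single genes varied widely between batches and overlapped between the cell types for every member. *Gabrb1* took 63.9, 39.8, 78.0 and 29.1% of the beta UMI in ChC batches 1 to 4 and 7.03, 24.7, 52.8 and 38.2% in Pv batches 5 to 8. *Gabrb1* was the larger part of beta in batches 1 and 3, from different ChC animals, and in Pv batch 7, and the means were 52.7 ± 22.3% (SD, n = 4 batches) in ChC and 30.7 ± 19.5% (SD, n = 4 batches) in Pv. The leading alpha member was *Gabra3* in batch 1 (76.5% of the alpha UMI), *Gabra2* in batch 2 (55.6%), *Gabra4* in batch 3 (36.6%, with *Gabra5* at 35.6%) and *Gabra5* in batch 4 (56.7%). In Pv cells it was *Gabra5* in batch 5 (82.3%), *Gabra4* in batch 6 (63.5%), *Gabra3* in batch 7 (83.3%) and *Gabra4* in batch 8 (59.8%). The leading alpha member thus differed between the batches of each labeled animal, although the first 2 of batch 3 were within counting error of each other. *Gabra4* averaged 11.9 ± 16.9% (SD, n = 4 batches) of alpha in ChC and 35.4 ± 30.4% (SD, n = 4 batches) in Pv, and *Gabra2* averaged 24.2 ± 22.9% (SD, n = 4 batches) and 6.11 ± 9.54% (SD, n = 4 batches), with overlapping ranges for both. Without batch 6 the Pv shares of alpha, beta and delta were 21.9, 56.7 and 21.5%, *Gabrb1* made up 32.7% of the Pv beta UMI, and *Gabra2*, *Gabra3*, *Gabra4* and *Gabra5* made up 1.40, 37.8, 26 and 34.8% of the Pv alpha UMI. Each of the other alpha means that moved by over 1.5 times rested on the batch in which the share of that gene was highest. Without that batch *Gabra3* was 15.5% in place of 32.4% (batch 7) and *Gabra5* 7.38% in place of 26.1% (batch 5) of the Pv alpha UMI. In ChC *Gabra2* was 13.7% in place of 24.2% (batch 2), *Gabra3* 23.9% in place of 37.1% (batch 1), *Gabra4* 3.70% in place of 11.9% (batch 3) and *Gabra5* 16.9% in place of 26.8% (batch 4).

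**Figure D3:**
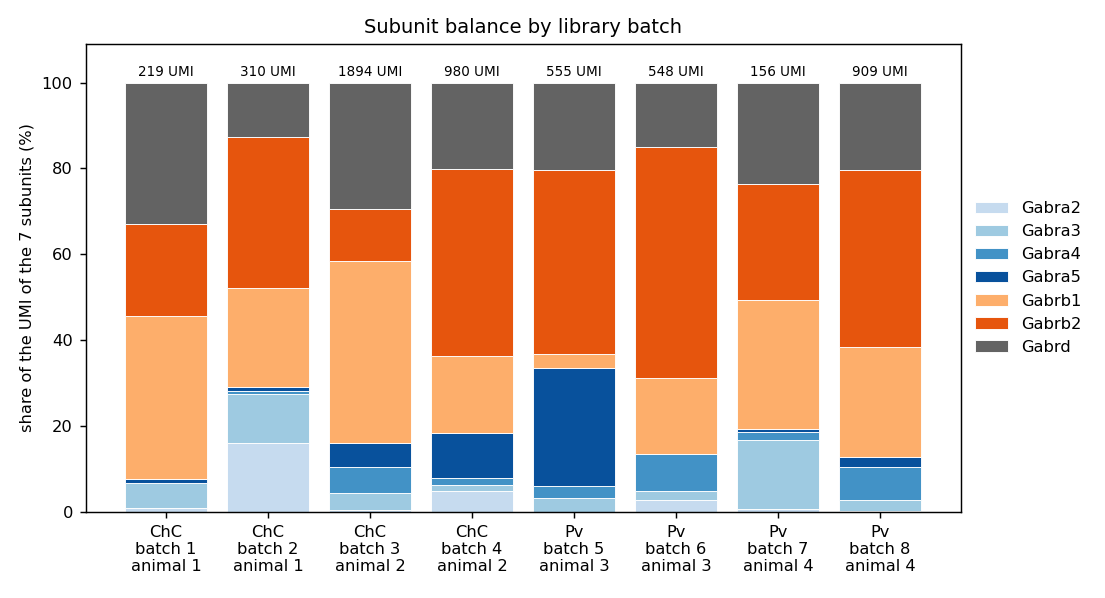
Share of each subunit in the summed UMI of the 7 (vertical axis, percent) in each library batch, with alpha members in blue, beta in orange and delta in gray, and the number of UMI above each bar. Beta is 54.3 to 61.4% in ChC and 46.1 to 71.5% in Pv, and the largest blue segment changes from batch to batch.

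Single cells were then examined for the members they held. Of 63 ChC and 63 Pv cells, *Gabrb2* had at least 1 UMI in 57 and 62, *Gabrb1* in 56 and 50, and *Gabrd* in 54 and 58. The alpha members were found in fewer cells, with *Gabra2* in 37 ChC and 9 Pv cells, *Gabra3* in 40 and 36, *Gabra4* in 23 and 39, and *Gabra5* in 32 and 28. Of the 9 Pv cells with *Gabra2*, 7 were in batch 6, and without that batch the share of Pv cells with *Gabra2* was 4.17% in place of 14.3%. Without batch 6 the Pv shares were 62.5% for *Gabra3*, 56.2% for *Gabra4* and 58.3% for *Gabra5*, and 75, 97.9 and 93.8% for *Gabrb1*, *Gabrb2* and *Gabrd*. Without batch 5 the Pv share was 27.7% for *Gabra5*, in place of 44.4%, and without batch 3 the ChC share was 21.3% for *Gabra4*, in place of 36.5%. As a reference, *Gabra6*, the alpha gene of cerebellar granule cells, had a UMI in 0 ChC and 1 Pv cell, and *Neurod6*, a gene of pyramidal neurons, in none, while *Slc17a7*, the glutamate transporter of pyramidal neurons, had a UMI in 22 ChC and 28 Pv cells. In Pv cells the shares of *Gabra2* (14.3%) and *Gabra5* (44.4%) were at or below that of *Slc17a7* (44.4%) and are not read as expression from the share alone, although *Gabra5* was in 15 of 16 cells of batch 5. The order changed with depth in Pv cells too, as on thinning to 5000 UMI *Slc17a7* was in 24.6% of 61 Pv cells, equal to *Gabra4* (24.6%), above *Gabra2* (4.92%) and *Gabra3* (11 of 61 cells) and below *Gabra5* (26.2%). On thinning to 10000 UMI it was in 29.1% of 55 Pv cells, above *Gabra2* (10.9%) and below *Gabra3* (32.7%), *Gabra4* (41.8%) and *Gabra5* (30.9%). In ChC *Slc17a7* was at 34.9% and *Gabra4* at 36.5%, and the order of *Slc17a7* and the alpha members changed with depth. On thinning to 5000 UMI *Slc17a7* was in 9.09% of 55 ChC, below *Gabra2* (16.4%), *Gabra3* (12.7%) and *Gabra5* (18.2%) and above *Gabra4* (7.27%). On thinning to 10000 UMI it was in 29.2% of 48 ChC, above *Gabra2*, *Gabra3* (22.9%), *Gabra4* (16.7%) and *Gabra5* (27.1%). The alpha shares in ChC are therefore not read as expression from the share alone either, while the beta and delta members were in 77.1% or more of the 48 ChC.

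The share of cells with a UMI depends on how many UMI a cell has. After thinning each cell to 5000 UMI, which left out 8 ChC and 2 Pv cells, *Gabrb2* was found in 61.8% of 55 ChC (exact interval 47.7 to 74.6%) and 85.2% of 61 Pv cells (73.8 to 93.0%). *Gabrd* was then in 52.7 and 65.6% and *Gabrb1* in 58.2 and 47.5% of ChC and Pv cells. *Gabra2* was in 16.4 and 4.92%, with all 3 Pv cells in batch 6, *Gabra3* in 7 of 55 and 11 of 61 cells, *Gabra4* in 7.27 and 24.6%, and *Gabra5* in 18.2 and 26.2%. Among the thinned ChC, 3 of 4 with *Gabra4* were in batch 3, 7 of 10 with *Gabra5* in batch 4 and 4 of 7 with *Gabra3* in batch 2. *Gabra5* turned from the higher share in ChC to the higher share in Pv cells on thinning, as did *Gabra3*. Both turns rested on single Pv batches. Of the thinned Pv cells, 14 of 16 with *Gabra5* were in batch 5 and 6 of 11 with *Gabra3* in batch 7. The cells of a batch share their library, so these intervals do not compare the cell types.

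The number of cells with a member was set beside its total in the batch and the totals of the cells. If every cell of a batch held a member at the share it had in the batch as a whole, *Gabra4* would have been found in 39.6 Pv cells, against 39 observed, and *Gabra2* in 31.5 ChC and 10.2 Pv cells, against 37 and 9. Over the 56 pairs of a member and a batch, the observed number was within 2 cells of this value in 53, but with very few UMI or nearly all cells positive these numbers can hardly differ. Among the 29 pairs with over 3 UMI and under 90% of the cells expected, 26 were within 2 cells, and the largest difference was 2.9 cells.

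**Figure D4:**
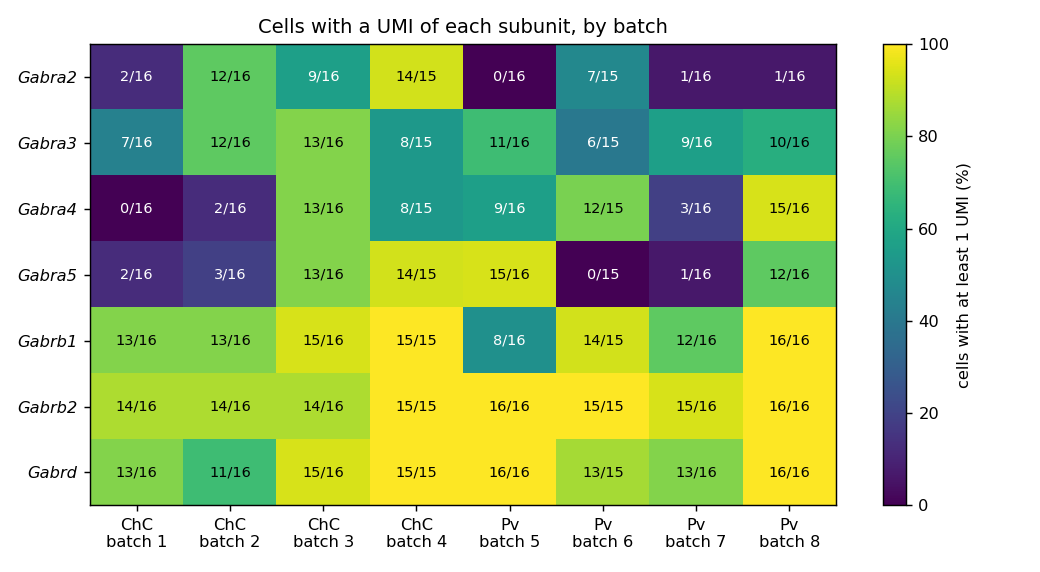
Cells with at least 1 UMI of each subunit (rows) in each library batch (columns), as number of cells and, in color, as percent. *Gabra5* is in 15 of 16 cells of batch 5 and 0 of 15 cells of batch 6, and *Gabra2* is in 14 of 15 cells of batch 4 and 2 of 16 cells of batch 1.

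Most cells held several members. The median cell had 5 of the 7 in both cell types, and all 7 were found in 14 ChC and 1 Pv cell. More than 1 alpha member was found in 42 ChC and 38 Pv cells and no alpha member in 12 and 8. Both beta members were found in 54 ChC and 50 Pv cells, while *Gabrb2* alone was found in 3 ChC and 12 Pv cells and *Gabrb1* alone in 2 and 0. All 23 ChC with a UMI of *Gabra4* also had *Gabrd*, as did 37 of 39 Pv cells, and *Gabrd* was found without *Gabra4* in 31 ChC and 21 Pv cells. At 5000 UMI a cell the median was 3 members, no cell had all 7, and more than 1 alpha member was found in 1 of 55 ChC and 6 of 61 Pv cells. Both beta members were then in 21 of 55 ChC and 26 of 61 Pv cells. Of the thinned cells with *Gabra4*, 3 of 4 ChC and 9 of 15 Pv cells had *Gabrd*. Among all thinned cells *Gabrd* was in 29 of 55 ChC and 40 of 61 Pv cells. Over these thinned cells, which pool batches, the 21 Spearman correlations between members lay between -0.325 and 0.223 in 55 ChC and between -0.345 and 0.263 in 61 Pv cells, weak values in sparse counts.

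Within a batch the members followed the size of the cell. For the 17 pairs of member and batch with at least 100 UMI, the Spearman correlation of the member's UMI with the UMI of the cell was between 0.788 and 0.996 over the 15 or 16 cells, which is described here without a test since the cell total contains the member. The variation between cells beyond the cell totals was measured as chi-square per degree of freedom, where sampling alone gives about 1. It lay between 0.386 (*Gabrb2* in batch 6) and 1.65 (*Gabra5* in batch 5) with a median of 0.85, and 12 of 17 values were below the median of all genes of the same batch, which was between 0.991 and 1.09 in the batches with such a pair. *Gabrb1* in ChC batch 3, with 803 UMI over 16 cells, had a value of 0.528.

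Between the batches labeled as 1 animal the members differed by up to many fold, taken as shares of the batch totals. Batch 6 has no *Xist*, and whether batches 5 and 6 are of the same animal was not tested, so their folds compare the batches only. *Gabra5* was at least 56-fold higher in batch 5 than in batch 6, taking 3 counts as the limit for batch 6. *Gabra2* was 20.1-fold higher in batch 2 than in batch 1 of animal 1 (95% counting interval 5.29 to 171) and 10.3-fold higher in batch 4 than in batch 3 of animal 2 (5.14 to 22.9). *Gabra4* was 9.27-fold higher in batch 8 than in batch 7 of animal 4 (3.04 to 46). *Gabrb1* was 4.91-fold higher in batch 6 than in batch 5 (2.95 to 8.63) and *Gabrb2* 4.14-fold higher in batch 4 than in batch 3 of animal 2 (3.52 to 4.89), whereas *Gabrb2* differed by 1.13-fold between batches 5 and 6 (0.949 to 1.35). *Gabrd* differed by 1.29-fold to 2.29-fold in the 4 pairs of batches. Genes with at least 100 UMI over both batches of an animal differed by a median of 1.98-fold to 2.78-fold, with counts under 3 set to 3, and 7.54 to 23.3% of them by over 10-fold. Between batches 5 and 6, 4.04% of these genes were at 0 in 1 of the batches, as *Gabra5* and *Xist* were. Why the batches differ was not tested.

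**Figure D5:**
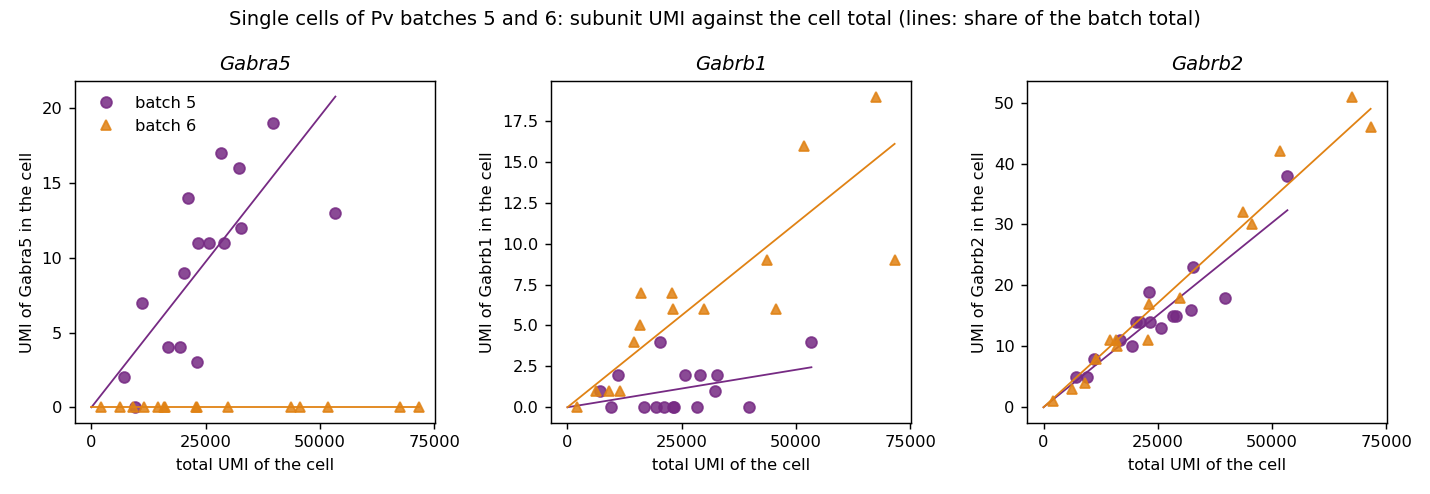
UMI of *Gabra5*, *Gabrb1* and *Gabrb2* (vertical axes) against the total UMI of the cell (horizontal axes) for single cells of Pv batch 5 (circles) and batch 6 (triangles), labeled as animal 3 although batch 6 lacks *Xist*, with lines at the share of each gene in the batch. The batches lie apart for *Gabra5* (153 against 0 UMI) and *Gabrb1* (18 against 97 UMI) and together for *Gabrb2* (238 against 295 UMI).

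The other genes of the pathway were grouped in lists of other subunits, of anchoring, assembly and trafficking factors, and of genes of neurosteroid synthesis. None of these lists held a gene that passed edgeR's test over animals. Of the 12 other GABA-A subunit genes, 5 were tested, 0 passed in either direction, and the median log2 fold change (ChC over Pv) was 0.69.

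Of the 22 anchoring, assembly and trafficking genes, 21 were tested and 0 passed in either direction, with a median log2 fold change of -0.23. The largest values were those of *Rdx*, which encodes radixin, an anchor of alpha5 receptors (2.35, SE 1.42, adjusted p = 0.884 from edgeR's test), and *Shisa7*, an auxiliary subunit of GABA-A receptors (1.82, SE 1.78, adjusted p = 0.982), which was 0.30 without batch 8 and 8.57 without animal 4. Of the 6 genes of neurosteroid synthesis, whose products act on delta receptors, 2 were tested and 0 passed in either direction. They were *Star*, which carries cholesterol into mitochondria (3.68, SE 1.74, adjusted p = 0.805, and 1.43 without animal 1, whose batch 2 held 180.2 CPM), and *Akr1c14*, which reduces progesterone metabolites to neurosteroids (-0.87, SE 1.39, adjusted p = 0.989).

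The genes most like each member over the 8 batches were found by Pearson's r of log2(CPM + 1), a description over 8 batches that share animals, taken as the highest of up to 6283 genes. They were *Grik1* (r = 0.943) and *Orc3* (0.932) for *Gabra2*, *Cpped1* (0.939) and *Trhde* (0.920) for *Gabra3*, *Prdx2* (0.991) and *Nudcd3* (0.988) for *Gabra4*, and *Traf3* (0.950) and *Birc6* (0.949) for *Gabra5*. For the beta and delta members they were *1500011H22Rik* (0.953) and *Apbb2* (0.946) for *Gabrb1*, *Ndufs4* (0.944) and *Cab39* (0.921) for *Gabrb2*, and *AI837181* (0.965) and *9930013L23Rik* (0.959) for *Gabrd*. No member was among the genes most like another. The highest r between members was 0.601, for *Gabra4* and *Gabrb2*, and *Gabra4* and *Gabrd* had an r of 0.520.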

How the data were processed

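The members and the gene lists were chosen with earlier results of these data known. The authors aligned poly(A)-primed reads to mm9 with Bowtie 0.12.7, counted each varietal tag once per gene and deposited these counts, whole UMI per transcript and cell, without normalization. The study removed 2 cells that failed to amplify, and the annotation and the use of strand in counting are not given in the sources used here. The 27207 transcripts carry 23335 gene names, and all 128 cell columns were mapped to library batches by the cell ranges in the labels. ChC-49 and Pv-27 held no counts. The rows of a member were summed, and for other genes and totals the transcript with the most UMI was taken. File starts, which count from 0, were written 1-based.

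UMI were summed per animal and fitted across all genes with edgeR 4.0.16 (quasi-likelihood test, TMM, filter on low counts, two-sided, Benjamini-Hochberg adjustment, threshold 0.05) in R 4.3.3. Levels were CPM of a batch with TMM over the 8 batches. Shares carry exact (Clopper-Pearson) 95% intervals, and a count of 0 allows up to 3 counts, for counting error only. Alternatives were RLE or no scaling, no filter, DESeq2 1.42.0, batches as samples in edgeR or in limma 3.58.1 (voom, animal as random block), summed rows for every gene, cells under 5000 UMI left out, each animal or batch left out, and thinning to 5000 or 10000 UMI. Batch totals of 316540 to 2460679 UMI set the precision.

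Named genes were the 7 members, from each pathway list the genes past the threshold or, where there was none, the 2 with the largest log2 fold change in size, and the 2 genes most like each member. *Pvalb*, *Xist*, *Slc32a1*, *Gabra6*, *Neurod6* and *Slc17a7* served as checks, and other markers of cell types were named beside them. Promoter windows were read from the mm9 (NCBIM37) genome. The genes that this rule names among the other subunits, and the promoter window of 1 member, are not reported here.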

Additional observations from a re-analysis of the deposited data

Results flagged for a closer look

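Groups of 4 batches were looked at for a batch that stood far from the other 3 by Dixon's criterion, and 6 of 44 had such a batch. Chance gives about 1 in 20 for a single group, but these groups overlap (levels and shares of the same genes) and the 6 concern 3 genes with 2 measures each, so the number is not compared with chance. All 6 were Pv batches. *Gabra5* was at 416.7 CPM in batch 5, above the other Pv batches, and made up 27.57% of the UMI of the 7 subunits there. *Gabra2* was at 38.61 CPM in batch 6, with 20.27% of the alpha UMI, each the highest of the Pv batches, and batch 6 is the batch without *Xist*. *Gabra3* made up 83.33% of the alpha UMI and 16.03% of the UMI of the 7 subunits in batch 7, the shallowest batch. Batch 7 held 25 UMI of *Gabra3* and 30 alpha UMI in all.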

How the results depend on the processing

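No paired analysis was possible because ChC and Pv cells came from different animals and batches, and the labels give them no shared replicate number. The number of genes called over animals was 0, and it was 84 with no filter on low counts, 158 with DESeq2, 6 with batches as samples in edgeR, 6 with batches in limma voom, and from 0 to 96 with an animal or batch left out (15, 60, 14 and 96 without animals 1, 2, 3 and 4, 2 without batch 4 and 1 without batch 7). No member was called under any of these, with adjusted p from 0.264 to 1.0 for *Gabrb2*. The log2 fold change of *Gabra5* turned to 0.82 with batches in limma voom. With an animal or batch left out, *Gabra3* ranged from -0.65 to 0.36, *Gabra5* from -4.34 to 1.69 and *Gabrb1* from -0.21 to 0.66, and the cause was not tested. *Gabra2* (0.09 to 4.90), *Gabra4* (-4.98 to -0.98), *Gabrb2* (-2.04 to -0.88) and *Gabrd* (-0.90 to -0.05) kept their sign. Taking the top row of a gene could not change the balance values, since each member has 1 row. They moved by less than 1 SD on thinning, with equal weight for cells and without cells under 5000 UMI. Leaving out 1 of 4 batches cannot move a mean by that much, and the shares of the alpha UMI that moved by over 1.5 times are given with the balance values. Shares of cells with a UMI moved by more than that in 10 of 14 values on thinning to 5000 UMI, in 4 of 14 at 10000 UMI, and in 5 of 14 when at least 2 UMI were asked for. *Gabra2* did not pass the filter over batches and has no value there. The alpha members rest on few UMI, with 2 to 50 of *Gabra2* in a ChC batch.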

Other observations

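The following values were chosen after they were seen. *Gabrg3*, a gamma subunit gene beside *Gabra5* on chromosome 7, had the most UMI of the GABA-A subunit genes when all cells were pooled. It had 4431 UMI and a UMI in 125 cells. It was not the highest in every batch, as *Gabrb2* was above it in Pv batches 5 and 6, at 648 and 759 CPM. The level of *Gabrg3* was 1071, 853, 671 and 673 CPM in ChC batches 1 to 4 and 515, 551, 535 and 465.5 CPM in Pv batches 5 to 8. All ChC batches were above all Pv batches. Such a lack of overlap, in either direction, held for 4.74% of the 6283 genes tested over batches. The log2 fold change of *Gabrg3* over animals was 0.69 (SE 0.51, adjusted p = 0.939 from edgeR's test).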
